A study of Homo sapiens with 12 samples.

Results

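The genes described here are NDRG1 and 36 genes of the response to low oxygen and of glycolysis, 37 in all of the 62656 genes in the deposited count table. They were taken by gene symbol from a fixed list, and all 37 were found. The list was drawn up with earlier results of these data known, so the shares called among these genes are not independent of those results. RNA was sequenced from 12 libraries of 2 established human colorectal cancer cell lines, HCT116 and LoVo, with 3 libraries in each of 4 groups. The groups were HCT116 labelled Control, HCT116 labelled SLERT OE (with SLERT, a long non-coding RNA, overexpressed), LoVo labelled Control and LoVo labelled SLERT KD (knockdown of SLERT). The data tables head these columns Vector, OE, ShNC and Sh. Separate cultures or clones behind the 3 libraries of a group are not described, so a p-value here measures spread among libraries that may be technical replicates. Oxygen supply, glucose and culture density of the cells were not stated.

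When oxygen is plentiful, the prolyl hydroxylases encoded by EGLN1 and EGLN3 mark the alpha subunits of hypoxia-inducible factor (HIF), encoded by HIF1A and EPAS1, for destruction. When oxygen is scarce the subunits persist, enter the nucleus and bind DNA at hypoxia response elements, whose core letters are ACGTG, with a G in place of the first A in some. Their targets include glucose transporters, nearly every enzyme of glycolysis, the kinase PDK1 that holds pyruvate back from mitochondria, the angiogenic factor VEGFA, and NDRG1, a cytoplasmic protein induced by hypoxia and studied as a suppressor of metastasis. SLERT is made from the TBRG4 gene and carries the small nucleolar RNAs SNORA5A and SNORA5C at its ends.

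The libraries held 14464008 to 17230310 counts. SNORA5C summed to 16 counts over the 3 HCT116 control libraries and 1926 over the 3 overexpression libraries, and TBRG4 also rose there (log2 fold change 0.66, edgeR adjusted p = 5.24e-08). In LoVo, SNORA5C summed to 37 counts in the control and 37 in the libraries labelled knockdown (log2 fold change -0.02, edgeR adjusted p = 0.98), so these rows show no fall of SLERT there. The summed level of 12 colorectal epithelium markers ranged over 4648 to 5080 CPM (counts scaled to library size, normalised with TMM factors) in HCT116 and 6886 to 8386 in LoVo, with CDX1 and CEACAM5 at 0 counts in the HCT116 controls. The summed level of 12 fibroblast and endothelium markers was 76.1 to 91.3 CPM in HCT116, 21.6 to 22.5 CPM in the LoVo controls and 10.8 to 11.7 CPM in the libraries labelled knockdown. The summed level of 14 retina markers stayed at or below 17.9 CPM in every library, although the extraction text speaks of retinas.

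Promoter sequence was available from RefSeq (GRCh38.p14) for 33 of the 37 genes, in 51 windows of the 250 bases before an annotated start, and several genes have more than 1 window. NDRG1, SLC2A3, VEGFA and BNIP3L had no window. Windows were searched on both strands for ACGTG, the commoner core of the hypoxia response element. The variant core GCGTG was searched in the same way. So was CACGTG, the E-box, which contains the first core. All 37 genes are protein-coding, and ACGTG was in 23 of the 51 windows (45.1%), against 20.2% of 22199 protein-coding windows and 18.5% of all 35116 windows. GCGTG was in 19 (37.3%), which is not above the 38.3% of protein-coding windows although above the 32.2% of all. CACGTG was in 9 (17.6%), against 7.4% of protein-coding windows and 6.3% of all. A match is a description of letters and not a shown binding site. Stretches of 30 bases around the matches in the first window are shown for 6 genes chosen after their values were seen. ALDOC, P4HA1 and KDM3A fell with SLERT overexpression in HCT116, ADM and PFKFB4 fell in the LoVo libraries labelled knockdown, and LDHA is a glycolytic gene that passed the test in neither. Capitals mark the searched letters on either strand, each stretch is written 5′ to 3′ on the gene's strand, and GENCODE v29 has an earlier start for all 6 genes.
ALDOC, chr17:28577116-28577145, minus strand: aagtgcccggCACGTGgtaaagggattgtg
ALDOC, chr17:28576987-28577016, minus strand: cccgcctctgaggGCGTGgtcttgccccgg
ALDOC, chr17:28576915-28576944, minus strand: aggcCACGCccccggaggagtCACGTagct
P4HA1, chr10:73096936-73096965, minus strand: gtgtgatcgagctCACGTagcgagggctgc
KDM3A, chr2:86441332-86441361, plus strand: tccgggaggctgtGCGTGtcttgtgagagc
ADM, chr11:10304959-10304988, plus strand: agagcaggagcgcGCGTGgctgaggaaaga
PFKFB4, chr3:48556953-48556982, minus strand: gtgagttgggcatGCGTGgtcggaggccgg
LDHA, chr11:18394366-18394395, plus strand: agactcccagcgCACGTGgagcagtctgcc
LDHA, chr11:18394470-18394499, plus strand: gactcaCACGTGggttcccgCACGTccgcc
The ALDOC window held 5 core matches at 4 places and the first LDHA window 5 core matches at 3 places, beside 1 GCGTG in a second LDHA window that is not shown, so the gene with the second largest called fall in HCT116 and a gene that passed the test in neither line both carried several. The EGLN3 window held none of the 3 motifs.

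SLERT overexpression in HCT116 lowered 4 of the 37 genes and raised none. The 4 were NDRG1, the brain-type aldolase gene ALDOC, the collagen prolyl hydroxylase gene P4HA1 and the histone demethylase gene KDM3A. Changes were tested with edgeR's quasi-likelihood test, with Benjamini-Hochberg adjustment over all genes tested and a call at an adjusted p under 0.05. In this comparison 0.914% of 15980 genes were called in either direction, 0.507% higher and 0.407% lower, beside 10.8% (4 of 37) of these genes called lower. The 37 genes were more abundant than most (median log2 CPM 6.39 against 4.32 over all genes tested). The part of abundance in these shares was not tested. No gene of the 37 was called higher by edgeR or by DESeq2, 2 were higher at an unadjusted p under 0.05 and 10 lower. The share of all genes tested at that unadjusted p was not counted, so these 2 numbers have no background here. The median log2 fold change of the 37 was -0.047, against -0.002 over all genes tested.

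NDRG1 (chromosome 8, 133237171 to 133302022, minus strand, GRCh38, protein-coding) had the largest fall among the called genes. It was at 389, 375 and 361 CPM in the HCT116 controls and at 255, 230.4 and 243 CPM with overexpression. Every overexpression library was below every control library. The fold was 1.54 lower (log2 fold change -0.62, SE 0.05, 95% interval -0.73 to -0.51, edgeR adjusted p = 5.24e-08), and leaving out any 1 library gave log2 changes between -0.66 and -0.58. In LoVo the gene was far lower and showed no call: 27.97, 25.7 and 25.3 CPM in the controls against 22.3, 24.6 and 27.8 CPM in the libraries labelled knockdown, with overlapping groups (log2 fold change -0.08, 95% interval -0.28 to 0.11).

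ALDOC (chromosome 17, 28573115 to 28577264, minus strand), whose product splits fructose 1,6-bisphosphate in glycolysis, was at 67.1, 60.4 and 69.0 CPM in the HCT116 controls and at 48.4, 42.3 and 49.95 CPM with overexpression. The groups were apart (log2 fold change -0.47, SE 0.08, edgeR adjusted p = 0.00151). P4HA1 (chromosome 10, 73007217 to 73096974, minus strand), which encodes an alpha subunit of the enzyme that hydroxylates prolines in collagen, was at 62.9, 65.0 and 64.0 CPM in the controls and at 49.1, 53.5 and 50.1 CPM with overexpression. KDM3A (chromosome 2, 86440647 to 86492716, plus strand), which encodes an eraser of methyl marks on histone H3, was at 114, 120.4 and 112 CPM against 98.9, 95.6 and 95.9 CPM. Both genes were lower in every overexpression library than in any control. The log2 fold changes were -0.32 for P4HA1 (SE 0.07, edgeR adjusted p = 0.0159) and -0.24 for KDM3A (SE 0.06, edgeR adjusted p = 0.0389). The ALDOC and NDRG1 calls held when any 1 library was left out. P4HA1 lost its call without control 1 or 2 or overexpression library 1 or 3, with edgeR adjusted p of 0.0529 to 0.101, and KDM3A without control 1 or 2 or overexpression library 2 or 3, with 0.108 to 0.193. With limma on the deposited FPKM values, only NDRG1 was called.

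**Figure D1:**
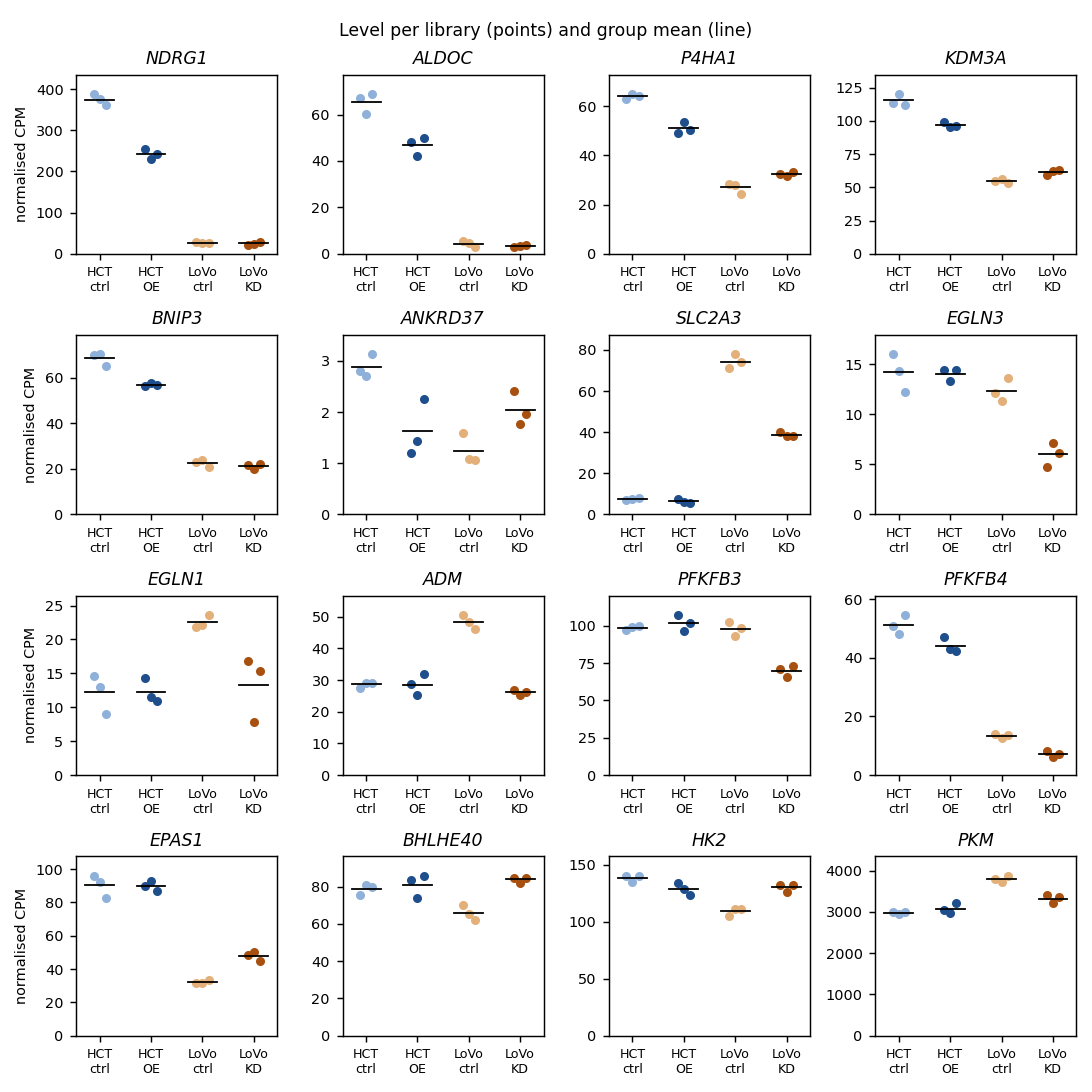
Level of 16 of the genes in each library, as normalised CPM on linear axes that start at 0 (points, 3 libraries a group; lines, group means; HCT = HCT116, ctrl = labelled Control). NDRG1, ALDOC, P4HA1 and KDM3A are lower in all 3 overexpression libraries than in the HCT116 controls, while SLC2A3, EGLN3, ADM, PFKFB3 and PFKFB4 are lower in all 3 LoVo libraries labelled knockdown than in the LoVo controls.

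In HCT116 another 8 genes had groups that did not overlap but no call: BNIP3, PFKFB4, ANKRD37, HK2, PGK1 and VEGFA, lower with overexpression, and TPI1 and PGAM1, higher. That is 21.6% of the 37 genes, and 18.1% of all genes tested were likewise apart without a call. BNIP3, which encodes a mitochondrial protein of mitophagy, was at 70.1, 70.4 and 65.3 CPM in the controls and 56.5, 57.7 and 56.8 CPM with overexpression (log2 fold change -0.26, edgeR adjusted p = 0.0522). It was called by DESeq2 (adjusted p = 0.0353), with upper quartile factors (edgeR adjusted p = 0.0416) and without control 3 (edgeR adjusted p = 0.0352). PFKFB4 was at 51.0, 48.1 and 54.6 CPM against 47.0, 43.0 and 42.2 CPM, also without overlap (edgeR adjusted p = 0.176). ANKRD37, an ankyrin-repeat gene induced by hypoxia, was low throughout at 2.81, 2.71 and 3.13 CPM against 1.20, 1.44 and 2.26 CPM (log2 fold change -0.82, edgeR adjusted p = 0.147), and 35.2% of its exon bases overlap UFSP2 on the opposite strand. Whether counting used strand was not stated, and without it reads of ANKRD37 and UFSP2 cannot be told apart.

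The listed sensor and HIF genes of HCT116 had estimates close to 0. HIF1A was at 100.3, 102 and 92.7 CPM in the controls and 103, 103 and 99.3 CPM with overexpression, a log2 fold change of 0.06 with a 95% interval of -0.07 to 0.18. EPAS1, EGLN1 and EGLN3 had log2 fold changes of 0.00, 0.01 and -0.01, and the intervals were narrow for EPAS1 (-0.13 to 0.13) and wider for EGLN1 (-0.29 to 0.31). Among 15 glycolytic enzyme genes, ALDOC was the 1 that passed the test. GAPDH, ENO1, PKM and LDHA had log2 fold changes between -0.02 and 0.05, and their 95% intervals lay within -0.13 and 0.15. A change as large as that of NDRG1 therefore lay outside the intervals of these 4 abundant transcripts.

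**Figure D2:**
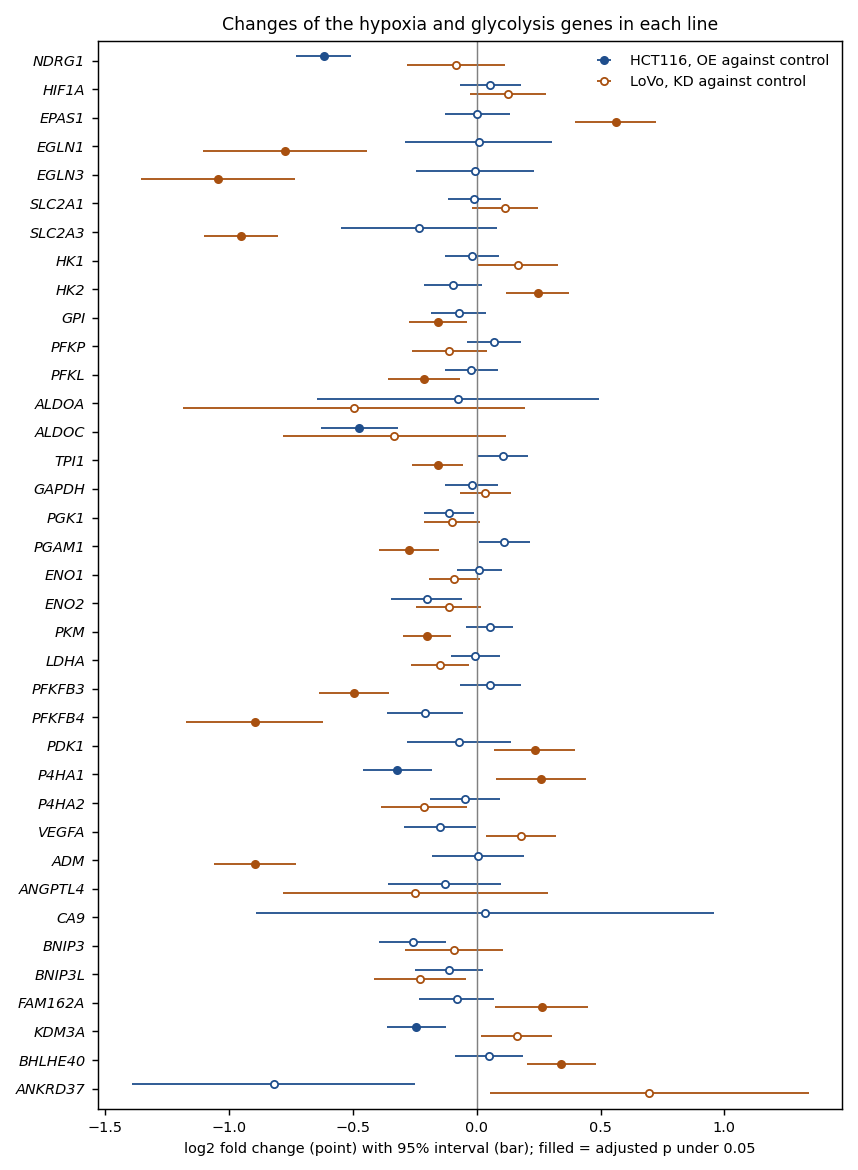
Log2 fold change of each gene (points) with its 95% interval (bars) for SLERT overexpression in HCT116 (blue) and for the libraries labelled knockdown in LoVo (brown), in order of role. Filled points passed edgeR's test: 4 in HCT116, all lower, and 17 in LoVo, of which 6 were higher and 11 lower; CA9 was not tested in LoVo.

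In LoVo, 6 of the 36 genes tested were higher and 11 lower in the libraries labelled knockdown than in the controls. Among the called genes the falls were largest in EGLN3, SLC2A3, PFKFB4, ADM and EGLN1, and the rises in EPAS1 and BHLHE40. This comparison called many genes: 26.3% of 16253 genes in either direction, 12.6% higher and 13.7% lower. The shares of these genes were 16.7% higher and 30.6% lower, with a median log2 fold change of -0.112 against 0 over all genes. The genes were also more abundant than most (median log2 CPM 5.82 against 4.29 over all genes tested), and the part of abundance in these shares was not tested. In the same comparison 10 of 12 epithelium markers passed the test (4 higher, 6 lower), and their part, like that of the lower fibroblast and endothelium sum, was not tested.

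Both oxygen sensor genes fell in LoVo, while EPAS1 rose and the other HIF alpha gene, HIF1A, was not called. EGLN3 was at 12.1, 11.3 and 13.6 CPM in the controls and at 4.69, 7.17 and 6.08 CPM in the libraries labelled knockdown (log2 fold change -1.04, SE 0.15, edgeR adjusted p = 1.97e-05). EGLN1 was at 21.9, 22.2 and 23.6 CPM against 16.8, 7.90 and 15.3 CPM (log2 change -0.77, SE 0.16, edgeR adjusted p = 0.00103). EGLN1 and EGLN3 were lower in every library labelled knockdown, with EGLN1 lowest by far in library 2. Without that library the EGLN1 log2 change was -0.49 (edgeR adjusted p = 0.000602), and DESeq2 did not call it with all 6 libraries (adjusted p = 0.0726). EPAS1, which encodes HIF-2 alpha, was at 31.9, 31.7 and 33.4 CPM against 48.2, 50.5 and 44.9 CPM, higher in all 3 (log2 fold change 0.56, SE 0.08, edgeR adjusted p = 1.38e-05). HIF1A was at 50.6, 51.9 and 46.2 CPM against 52.6, 56.9 and 53.4 CPM, without overlap, and was not called (log2 fold change 0.12, 95% interval -0.03 to 0.28).

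Of the glucose transporters, SLC2A3 (GLUT3, the high-affinity transporter) was at 71.0, 77.9 and 74.3 CPM in the LoVo controls and at 40.0, 38.0 and 38.0 CPM in the libraries labelled knockdown. The level was 1.93-fold lower with no overlap (-0.95 on the log2 scale, SE 0.07, edgeR adjusted p = 8.78e-10). SLC2A1 (GLUT1, the widely expressed transporter) was at 230.4, 220.5 and 227 CPM against 265, 221 and 251 CPM, with overlap and no call (edgeR adjusted p = 0.199). It was called without knockdown library 2 (log2 fold change 0.19, edgeR adjusted p = 0.0122).

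Of the enzymes that set fructose 2,6-bisphosphate, the activator of phosphofructokinase, the genes PFKFB3 and PFKFB4 both fell. PFKFB2, which is not among the 37 genes, was 30.4% of the summed PFKFB1 to PFKFB4 FPKM in the LoVo controls. In the libraries labelled knockdown its share was 36.5% of a lower sum (20.8 against 28.1 FPKM), so the larger share does not show a higher level. PFKFB3 was at 102.5, 93.2 and 98.6 CPM in the LoVo controls and 71.0, 65.7 and 73.2 CPM in the libraries labelled knockdown (log2 fold change -0.50, SE 0.07, edgeR adjusted p = 9.78e-06). PFKFB4 was at 13.9, 12.8 and 13.5 CPM against 8.24, 6.13 and 7.32 CPM (log2 change -0.90, SE 0.13, edgeR adjusted p = 2.76e-05). Neither pair of groups overlapped. ADM, which encodes the vasodilator peptide adrenomedullin, fell by as much: 50.6, 48.4 and 46.1 CPM against 26.8, 25.3 and 26.3 CPM (log2 change -0.89, SE 0.08, edgeR adjusted p = 1.55e-08). The other secreted factors were not called. VEGFA was at 116, 99.0 and 105 CPM against 125, 113 and 127 CPM (edgeR adjusted p = 0.0592), and it was called higher without control 1 (edgeR adjusted p = 0.0288) or knockdown library 2 (0.00637). ANGPTL4, an inhibitor of lipoprotein lipase, stayed below 3 CPM.

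The glycolytic enzymes of LoVo changed by less. Of 15 tested, 5 were called lower (33.3%, against 13.7% of all genes tested) and 1 higher (6.7%, against 12.6%). PKM, which makes pyruvate in the last step, was at 3797, 3720.0 and 3876 CPM in the controls and 3397, 3218 and 3349 CPM in the libraries labelled knockdown (log2 fold change -0.20, SE 0.05, edgeR adjusted p = 0.00246). PGAM1, the phosphoglycerate mutase, was at 257, 253 and 275 CPM against 213, 218 and 223 CPM (log2 change -0.27, SE 0.06, edgeR adjusted p = 0.00128). Both were lower in all 3 libraries, by 1.15-fold and 1.21-fold. Falls of GPI (log2 fold change -0.16), PFKL (-0.21) and TPI1 (-0.16) also passed, but each lost its call without some single library, with edgeR adjusted p up to 0.183 for GPI, 0.194 for PFKL and 0.113 for TPI1. For GPI these were controls 1 and 3 and knockdown libraries 2 and 3, for PFKL any control and knockdown library 2, and for TPI1 controls 2 and 3 and knockdown library 3. PFKL was -0.11 without knockdown library 2. HK2, the inducible hexokinase of the first step, went the other way: 105, 111 and 111 CPM against 132, 126 and 132 CPM (log2 change 0.25, SE 0.06, edgeR adjusted p = 0.0045). LDHA, which turns pyruvate to lactate, had a log2 fold change of -0.15 and missed the threshold (edgeR adjusted p = 0.0578), and it was called without knockdown library 2 (-0.20, edgeR adjusted p = 0.00558).

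Rises in LoVo covered genes of several roles. BHLHE40, a transcriptional repressor of the clock and of hypoxia, was at 70.1, 65.5 and 62.0 CPM in the controls and 84.7, 82.2 and 84.7 CPM in the libraries labelled knockdown (log2 fold change 0.34, SE 0.07, edgeR adjusted p = 0.00066). PDK1 was at 45.0, 51.2 and 48.6 CPM against 51.9, 57.5 and 61.5 CPM (log2 fold change 0.23, edgeR adjusted p = 0.0305), and P4HA1 at 28.5, 28.01 and 24.3 CPM against 32.4, 31.5 and 33.4 CPM (log2 fold change 0.26, edgeR adjusted p = 0.0309). FAM162A, a mitochondrial protein induced by hypoxia, was at 29.6, 32.4 and 32.7 CPM against 34.9, 43.3 and 35.9 CPM (log2 fold change 0.26, edgeR adjusted p = 0.0357). All 4 were higher in every library labelled knockdown than in any control. The BHLHE40, HK2 and EPAS1 calls held without any 1 library. ANKRD37 had a larger estimate without a call: 1.60, 1.08 and 1.06 CPM against 2.41, 1.76 and 1.96 CPM (log2 fold change 0.70, edgeR adjusted p = 0.103). The calls of PDK1, P4HA1 and FAM162A did not hold, and DESeq2 called none of these 3 (adjusted p 0.0517, 0.0672 and 0.0702): PDK1 was lost without control 1 or 3 or knockdown library 3 (edgeR adjusted p 0.0908 to 0.183), and P4HA1 without control 3 or knockdown library 3 (0.112 to 0.193). FAM162A was lost without any 1 control or without knockdown library 2, where the log2 change was 0.16 (edgeR adjusted p = 0.215).

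A group of 14 genes had no call in either line and an estimate no farther from 0 than the -0.26 of BNIP3 in HCT116. They were HIF1A, SLC2A1, HK1, PFKP, GAPDH, PGK1, ENO1, ENO2, LDHA, P4HA2, VEGFA, ANGPTL4, BNIP3 and BNIP3L. In LoVo, PGK1 was at 371, 388 and 383 CPM in the controls against 356, 365 and 352 CPM, and ENO1 at 1527, 1438 and 1513 CPM against 1447, 1366 and 1415 CPM. Neither passed the test (log2 fold changes -0.10 and -0.09), although the PGK1 groups did not overlap. In LoVo 8 of the 36 genes tested (22.2%) were apart without a call, against 14.9% of all 16253 genes tested. With or without a call, 69.4% of the 36 and 39.9% of all genes tested were apart there. BNIP3L, a mitophagy receptor like BNIP3, was at 37.1, 36.6 and 32.4 CPM against 26.9, 32.3 and 31.8 CPM in LoVo, with no overlap and an edgeR adjusted p of 0.0636, or 0.0272 without knockdown library 2. P4HA2, the other collagen hydroxylase subunit, had a log2 fold change of -0.21 in LoVo (edgeR adjusted p = 0.0651) and was called without knockdown library 1 (0.0181). CA9, the surface carbonic anhydrase often used as a hypoxia marker, was between 0.538 and 0.819 CPM in the HCT116 libraries and at 0 counts in all 6 LoVo libraries. Its exons overlap ARHGEF39 on the opposite strand over 38.5% of their bases.

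The ALDOA row held 15 to 45 counts a library and does not give the level of aldolase A. In GENCODE v29 the exons of another gene, AC093512.2, cover 93.8% of its 1350 coding bases, so that reads lying in both genes could not be assigned to 1 of them by position alone. The LDHB row, of 11 to 47 counts, has the same feature, with 93.5% of its coding bases covered by AC010197.2. How the deposited counts treated such reads was not stated, and its part in these 2 rows was not tested. Pseudogene copies were counted apart and reached 8.41% of the counts of BNIP3, 5.41% of EGLN3, 3.97% of SLC2A3, 2.17% of ALDOA, 1.59% of PGAM1 and 1.43% of TPI1, so reads of these genes may be split.

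Between the control libraries of the lines, the set was lower in LoVo than in HCT116 for most genes. Of 36 genes tested, 23 were lower in LoVo controls and 9 higher, in a comparison that called 79% of 17143 genes (39% higher, 39.9% lower). The median log2 difference of the genes was -0.973, against 0.002 over all genes. NDRG1 was 14.2-fold lower in LoVo (375 ± 14.2 CPM in HCT116 and 26.3 ± 1.46 CPM in LoVo, SD, n = 3 each) and ALDOC 14.9-fold lower (65.5 ± 4.54 against 4.34 ± 1.22 CPM). ANGPTL4 was 7.54-fold lower, HK1 5.46-fold and PFKFB4 3.81-fold. These 5 genes were apart between the lines in every library.

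SLC2A3 was the largest exception, 9.92-fold higher in LoVo (7.54 ± 0.39 CPM in HCT116 and 74.4 ± 3.42 CPM in LoVo, SD, n = 3 each). PDK1 was 2.13-fold, VEGFA 2.102-fold, EGLN1 1.85-fold and ADM 1.70-fold higher, and PKM 1.28-fold. GAPDH, TPI1 and PFKL were called higher by 1.08-fold to 1.09-fold, and each lost its call without some single library. GAPDH lost it without HCT116 control 2 (log2 difference 0.07, edgeR adjusted p = 0.308) or LoVo control 1 or 3. TPI1 lost it without HCT116 control 1 or 2 or LoVo control 3, and PFKL without any HCT116 control or LoVo control 1 or 3. EGLN3, ENO2, PFKFB3 and ALDOA were not called. EGLN3 was at 14.2 ± 1.89 CPM in HCT116 and 12.3 ± 1.19 CPM in LoVo (SD, n = 3 each) and was called lower without HCT116 control 3 (edgeR adjusted p = 0.0311), and ENO2 without HCT116 control 2 (0.0441). This comparison shares its control libraries with the other comparisons, so its values are no separate evidence on the changes within a line.

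On the deposited FPKM scale, which divides by gene length, glycolysis in the HCT116 controls was led by GAPDH at 961 ± 44.3 FPKM and ENO1 at 638 ± 8.62. The ALDOA row, which does not give the level of aldolase A, was left out. PKM followed at 338 ± 1.3, TPI1 at 308.5 ± 6.41, LDHA at 209 ± 6.67 and PGAM1 at 204 ± 3.88 (SD, n = 3). The libraries of LDHA and PGAM1 overlapped. In the LoVo controls the order was GAPDH (1115 ± 27.99), PKM (463 ± 7.78), TPI1 (359 ± 3.64), ENO1 (299 ± 9.32), LDHA (114 ± 3.89) and PGAM1 (107.8 ± 4.39), with LDHA and PGAM1 again overlapping. ENO1 was thus above PKM and TPI1 in HCT116 and below both in LoVo on this scale. The order depends on the lengths behind FPKM, such as 2396 bases for GAPDH and 8572 for PKM. By mean CPM, which does not divide by length, ENO1 (3420) and PKM (2975) were above GAPDH (2365) in the HCT116 controls. In the LoVo controls PKM (3798) was above GAPDH (2554), and ENO1 (1493) above TPI1 (927). The entry steps were lower: SLC2A1 was at 78.4 ± 1.05 and 35.8 ± 0.814 FPKM in the HCT116 and LoVo controls. In the same order HK1 was at 31.75 ± 0.71 and 6.21 ± 0.518, and HK2 at 22.8 ± 0.402 and 19.3 ± 0.537. NDRG1, which is not a step of glycolysis, was at 30.4 ± 1.13 and 2.29 ± 0.136.

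**Figure D3:**
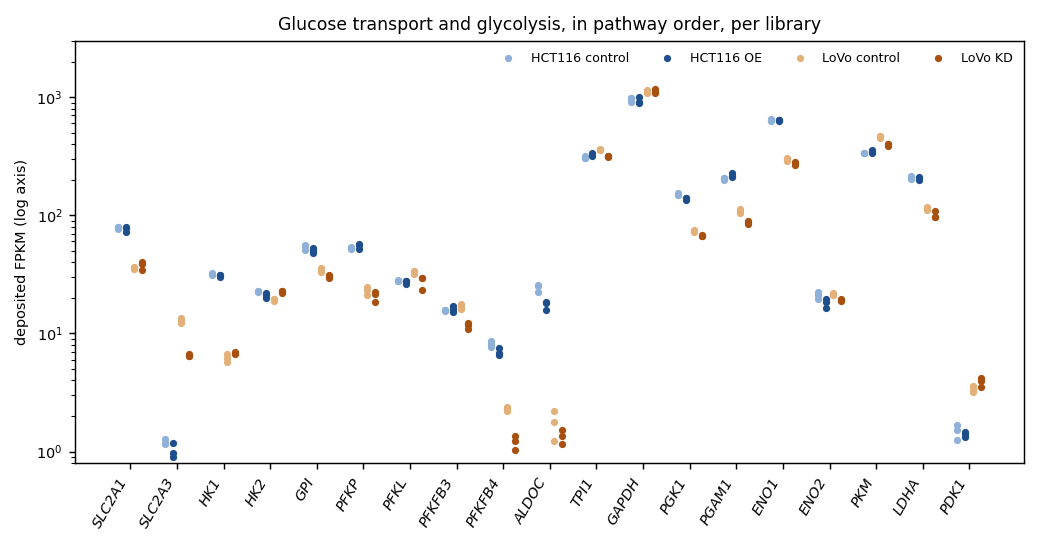
Deposited FPKM of glucose transporters, glycolytic enzymes, PFKFB genes and PDK1 in each library, in pathway order on a log axis (points, 3 libraries a group). GAPDH is highest in all groups, SLC2A3 and PDK1 are higher in LoVo, and HK1, ALDOC and PFKFB4 are lower in LoVo.

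Shares of a gene family's summed FPKM show which member carries the transcript. NDRG1 was 57.9% ± 0.39 of the summed NDRG1 to NDRG4 level in the HCT116 controls and 45.8% ± 1.0 with overexpression, against 11.4% ± 0.40 and 11.8% ± 0.90 in the LoVo controls and the libraries labelled knockdown (SD, n = 3). NDRG1 was thus the leading family member in HCT116 and not in LoVo, where NDRG3 led. Of the pair SLC2A1 and SLC2A3, SLC2A3 was 1.52% ± 0.10 and 1.30% ± 0.15 in the HCT116 groups and 26.4% ± 1.33 and 14.7% ± 0.93 in the LoVo groups. The LoVo groups did not overlap. Of the HIF alpha pair, EPAS1 was 39.3% ± 0.93 and 38.4% ± 0.40 in HCT116 and 31.6% ± 1.96 and 38.4% ± 1.0 in LoVo.

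In the hexokinase family HK2 was 41.3% ± 0.14 and 40.0% ± 1.41 of its summed FPKM in the HCT116 groups and 57.9% ± 2.1 and 49.96% ± 0.57 in the LoVo groups. HKDC1, a hexokinase-like gene of the gut and liver, was 0.962% ± 0.14 and 1.11% ± 0.07 in HCT116, but 23.5% ± 0.81 in the LoVo controls and 34.8% ± 0.50 in the libraries labelled knockdown. HK2 thus rose in level in LoVo while its share of the family was lower. The HKDC1 level was 32.4, 29.9 and 32.8 CPM in the LoVo controls and 64.1, 63.1 and 67.4 CPM in the libraries labelled knockdown (log2 fold change 1.03, SE 0.08, edgeR adjusted p = 5.57e-10). Shares depend on the lengths behind FPKM, and those lengths equalled the GENCODE v29 exon length for 9 of the 37 genes.

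**Figure D4:**
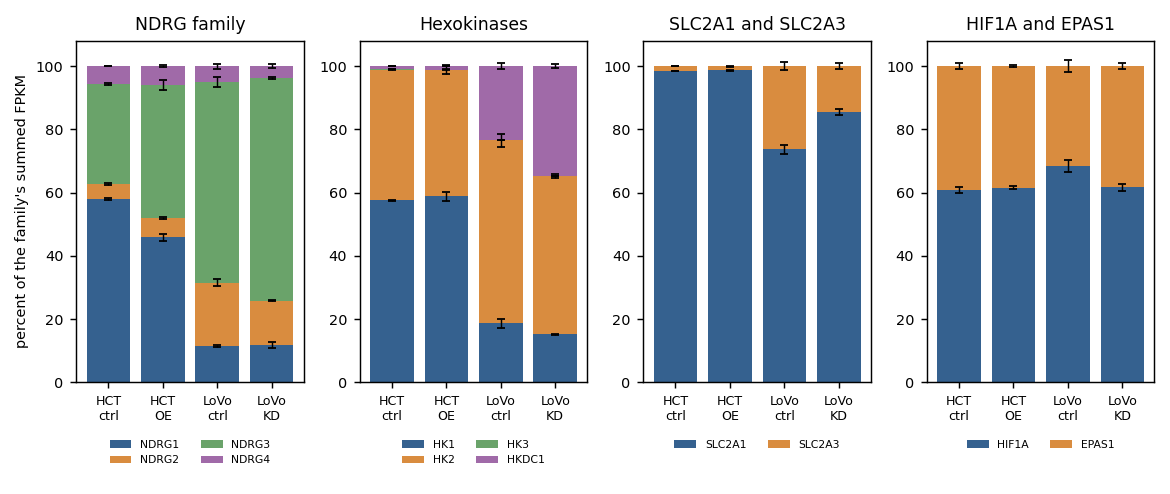
Share of each gene in its family's summed FPKM (stacked bars, mean of 3 libraries, in percent; error bars, SD) in the 4 groups. NDRG1 is 57.9% of its family in the HCT116 controls and 45.8% with overexpression, and HKDC1 is 23.5% of hexokinase FPKM in the LoVo controls and 34.8% in the libraries labelled knockdown.

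The changes in the lines were then set against each other on a common direction, more SLERT per the labels. The value is the overexpression change in HCT116 minus the control-over-knockdown change in LoVo. Overexpression was used only in HCT116 and knockdown only in LoVo, so line and type of manipulation cannot be told apart in this difference. In 1 edgeR fit of all 12 libraries, this difference was called in 14.6% of 18199 genes (6.94% higher, 7.61% lower) and in 15 of 36 genes described here (2 higher, 13 lower). NDRG1 differed by -0.70 (SE 0.10, edgeR adjusted p = 1.69e-05): the HCT116 change was -0.62, and in LoVo the controls were 0.08 above the libraries labelled knockdown, with no call. SLC2A3 differed by -1.18, PFKFB4 by -1.11, EGLN3 by -1.05 and ADM by -0.89, with edgeR adjusted p between 1.42e-06 and 0.000464. In these 4 the LoVo controls were above the libraries labelled knockdown and HCT116 had no called change. EPAS1 (0.56) and BHLHE40 (0.39) differed the other way.

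P4HA1 was the 1 gene called in both lines by the main edgeR fits, and neither call was firm. DESeq2 did not call it in LoVo (adjusted p = 0.0672), and the edgeR call was lost in 4 of 6 fits that left out 1 library in HCT116 and 2 of 6 in LoVo, with the libraries and values given above. It fell with overexpression in HCT116 (log2 fold change -0.32) and rose in the LoVo libraries labelled knockdown (0.26), so that the estimates have the same sign once both are put in the direction of more SLERT. The difference between the lines was -0.06 (SE 0.11, 95% interval -0.28 to 0.15). Its context also differed: 62.9 to 65.0 CPM in the HCT116 controls against 24.3 to 28.5 CPM in the LoVo controls. KDM3A, called lower in HCT116, was at 54.8, 56.0 and 53.5 CPM in the LoVo controls. In the libraries labelled knockdown KDM3A was at 59.1, 62.6 and 62.9 CPM, apart from the controls but without a call. It was called higher with all 12 libraries in 1 fit (log2 fold change 0.17, edgeR adjusted p = 0.049) and with the replicate block (0.16, edgeR adjusted p = 0.0351).

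Related genes outside the 37 were described with lists of the surrounding pathways. In HCT116, 0 of 120 such genes tested were called by edgeR, 34 had an unadjusted p under 0.05 (13 higher, 21 lower), and DESeq2 called 4 (2 higher, 2 lower). How many of all genes tested had an unadjusted p under 0.05 was not counted. Of 38 other hypoxia-induced genes tested there, 28 had a negative and 10 a positive estimate, with a median log2 fold change of -0.083. Over all genes tested there, 49.4% of estimates were positive and the median was -0.002. In LoVo 43 of 117 (36.8%) were called, 20 higher (17.1%) and 23 lower (19.7%), beside 26.3%, 12.6% and 13.7% of all genes tested.

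Among the other hypoxia-induced genes of LoVo, 6 of 39 rose (15.4%, against 12.6% of all genes) and 8 fell (20.5%, against 13.7%). IGFBP3, a binding protein of insulin-like growth factors, was at 26.4, 21.0 and 23.9 CPM in the controls and 7.91, 5.95 and 8.04 CPM in the libraries labelled knockdown (log2 fold change -1.71, SE 0.13, edgeR adjusted p = 8.33e-10). CITED2, which competes with HIF for its coactivators, was at 101.5, 90.9 and 98.3 CPM against 48.8, 46.9 and 55.0 CPM (log2 change -0.95, SE 0.07, edgeR adjusted p = 1.29e-09). DDIT4, an inhibitor of mTORC1 signalling, rose from 197, 217 and 223 CPM to 351, 319 and 328 CPM (log2 change 0.64, SE 0.06, edgeR adjusted p = 4.66e-08). In each of these 3 the groups were apart. The list thus held called members in both directions, as did the 37.

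The smaller lists are read against the 26.3% of all genes called in LoVo, and they hold few genes each. Of 14 genes of the HIF machinery tested, 3 rose and 2 fell (35.7% called), among them ARNT2, a partner of the alpha subunits (log2 fold change 0.61), the ubiquitin ligase SIAH2 (0.35) and the coactivator CREBBP (-0.24, and -0.15 without knockdown library 2). CREBBP lost its call without control 1 (edgeR adjusted p = 0.0807). Of 7 NDRG family and NDRG1 kinase genes none rose and 2 fell (28.6%, near the share of all genes): NDRG2 from 29.4, 29.99 and 27.7 CPM to 17.4, 19.2 and 18.8 CPM (log2 fold change -0.66), and NDRG4 (-0.53), whose call was lost without control 1 or knockdown library 3. None of the 7 was higher at an unadjusted p under 0.05 or by DESeq2, which called 1 lower. Of 16 other glycolysis genes tested 2 rose and 3 fell (31.2%, near the share of all genes), including HKDC1, PGM2, a phosphoglucomutase (0.31), and SLC16A3, the lactate exporter MCT4 (-0.33). PGM2 was not called without knockdown library 3, and SLC16A3 not without control 3.

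Of 12 genes of pyruvate entry into mitochondria 4 rose and 1 fell in LoVo (41.7% called). DLAT, a subunit of pyruvate dehydrogenase, rose (log2 fold change 0.30), as did MPC1, a subunit of the mitochondrial pyruvate carrier (0.45, lost without knockdown library 2), while PDP1, the phosphatase that opposes PDK1, fell (-0.33). Of 10 other collagen hydroxylase genes none rose and 4 fell (40.0% called), among them P3H1 (-0.39) and PLOD1 (-0.31), with 1 higher at an unadjusted p under 0.05 and 0 higher by DESeq2. Of 12 mitophagy genes 3 rose and 2 fell (41.7% called), with the kinase gene PINK1 at -0.61, FKBP8 at -0.34 and the receptor gene NBR1 at 0.28.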

How the data were processed

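RNA of 12 libraries was sequenced after TruSeq RNA preparation, and the submitters' processing notes name HISAT2 2.1.0 and the build GRCh38 for the authors' alignment. The deposited raw counts per gene were whole numbers for 62656 genes. The deposited FPKM values, normalised by the authors for gene length and library total, followed from those counts with a largest relative deviation of 5.19e-13. The counting tool, annotation release and use of strand are not known here. The HCT116 control columns carry no sample number and were used as unnumbered replicates.

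Counts were tested with edgeR 4.0.16 (R 4.3.3) by the quasi-likelihood test with TMM factors and filterByExpr, which kept 99.77 to 99.83% of counts. Benjamini-Hochberg adjustment covered every tested gene, and an adjusted p under 0.05 was a call. Each line was fitted alone, and the difference between lines was fitted over all 12 libraries. Alternatives were other size factors, DESeq2 1.42.0, no filter, limma 3.58.1 on log2(FPKM + 1) and log2(FPKM + 0.1), 1 fit of all libraries, a replicate block, and leaving out each library. The test was checked on simulated data. Promoter windows came from RefSeq (GRCh38.p14) and gene positions from GENCODE v29 (GRCh38).

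The 37 genes and the surrounding lists were chosen with earlier results of these data known. All 37 genes could be named. Of each surrounding list, up to 3 called genes with the smallest p in each line could be named, along with SNORA5A, SNORA5C and TBRG4. The result of 1 surrounding list is not reported here.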

Additional observations from a re-analysis of the deposited data

Results flagged for a closer look

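The change with more SLERT per the labels was compared between HCT116 and LoVo by an interaction test in edgeR with adjustment over all genes. It differed for 15 of 36 genes (41.7%), against 14.6% of all 18199 genes tested. Line and type of manipulation cannot be told apart here, because overexpression was used only in HCT116 and knockdown only in LoVo. Values are HCT116 minus LoVo on the log2 scale, and SNORA5C did not fall in the LoVo libraries labelled knockdown. NDRG1 differed by -0.70 (edgeR adjusted p = 1.69e-05) and ALDOC by -0.81 (0.00849), the latter -0.60 (0.0804) without LoVo control 1. SLC2A3 differed by -1.18 (edgeR adjusted p = 1.42e-06), PFKFB4 by -1.11 (3.48e-06), EGLN3 by -1.05 (0.000464), ADM by -0.89 (7.32e-06) and PFKFB3 by -0.44 (0.00112). EPAS1 differed by 0.56 (edgeR adjusted p = 0.0003) and BHLHE40 by 0.39 (0.00612). These 8 genes other than ALDOC kept their call when any 1 library was left out.

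The other 6 differences had edgeR adjusted p between 0.026 and 0.0445, and each lost its call without some single library. EGLN1 differed by -0.77, and by -0.49 (edgeR adjusted p = 0.102) without knockdown library 2. The differences were -0.35 for BNIP3, -0.34 for BNIP3L, -0.32 for ENO2, -0.23 for GPI and -0.21 for PGK1.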

How the results depend on the processing

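Over all alternatives, 1935 of 2093 values of the 37 genes kept their side of the threshold, 136 lost a call and 22 gained one. Called values changed sign 0 times. Among the 1935, values without a call changed sign 64 times. In HCT116, where 146 genes were called, DESeq2 called 281, no filter 256, limma 15 on log2(FPKM + 1) and 11 on log2(FPKM + 0.1), with 1 and 1 of the 37 genes lower. In LoVo limma called 1462 and 1674 genes, with 3 and 3 of the 37 higher and 6 and 6 lower, and DESeq2 called 3 higher. For the difference between lines limma called 1585 and 1360 genes, with 1 and 1 higher and 8 and 8 lower. The cause of these shifts was not tested.

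Leaving out 1 library gave 37 to 287 genes called in HCT116, with 2 to 5 of the 37 lower and 0 higher. Dropping control 1 left 37 genes, control 2 gave 38 and control 3 gave 287, while dropping overexpression library 2 left 43 and library 3 left 37. In LoVo it gave 2769 to 4813 genes, with 3 to 7 of the 37 higher and 8 to 12 lower, of which dropping control 1 left 2809 genes and control 3 left 2769. Between lines it gave 13366 to 13596 genes, with 6 to 9 higher and 23 to 24 lower. For the difference it gave 1787 to 3108 genes, with 2 higher and 8 to 13 lower.

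In LoVo the replicate block gave 5588 genes, with 8 of the 37 higher and 14 lower. Same-numbered libraries deviated with correlations of 0.217, 0.318 and -0.017, so the numbers are not taken as pairs. No paired analysis was possible because the HCT116 control columns carry no sample number, for the comparisons that use them.

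Shares of summed CPM in place of FPKM, in the order HCT116 control, overexpression, LoVo control and libraries labelled knockdown, were 78.2%, 69.6%, 25.2% and 27.6% for NDRG1, and 37.9%, 36.7%, 60.1% and 54.0% for HK2. They were 0.630%, 0.726%, 17.4% and 26.9% for HKDC1, and 47.8%, 46.9%, 39.5% and 46.8% for EPAS1. For SLC2A3 they were 1.40% in the HCT116 controls and 24.8% and 13.6% in the LoVo groups. CPM does not divide by length, which is part of its construction. With 3 libraries a group, small changes and genes of few counts such as CA9 and ANKRD37 are the least certain.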
